A study of Arabidopsis thaliana with 11 samples.

Results

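SDC (AT2G17690), QQS (AT3G30720) and BNS (AT1G73177) are 3 Arabidopsis thaliana genes known from earlier genetics for silencing or epigenetic variation tied to methylated DNA beside them. They were chosen by name out of 27444 protein-coding genes of the nuclear chromosomes, and each was read from 2 kb upstream of its start to 2 kb past its end in the TAIR10 genome. SDC lies at chr2:7682162-7684083 on the plus strand, QQS at chr3:12349047-12349933 on the plus strand and BNS at chr1:27516572-27517882 on the minus strand. Every peak that the authors deposited in these windows is given here, from 8 library lists and 3 merged lists. The names of the genes as methylation-silenced come from that earlier work, since the files analysed here hold no methylation or expression values.

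The series mapped proteins on chromatin by immunoprecipitation and sequencing (ChIP-seq) of inflorescences of the ecotype Col0. Wild-type plants carried ACD15.5-3XFLAG (2 libraries) or ACD21.4-3XFLAG (2 libraries), called ACD15-FLAG and ACD21-FLAG below. MBD6-RFP was present in wild-type plants (2 libraries) or in acd15 acd21 double mutants (2 libraries), and 3 control libraries (1 FLAG, 2 RFP) came from plants that carried no transgene. The lists of the controls are not used here, so no background level is given for them. FLAG libraries formed batch 1 and RFP libraries batch 2, so batch and tagged protein cannot be told apart where FLAG and RFP lists differ. All libraries have the antibody label anti-FLAG M2, but in batch 2 the titles name RFP. The labels do not say which promoter drives a transgene, how many independent lines were used, or whether replicates came from separate plants.

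MBD5 and MBD6 are proteins with a methyl-CG-binding domain, which recognises cytosines methylated in the CG context. They recruit the small alpha-crystallin-domain proteins ACD15 and ACD21 and the J-domain protein SLN to methylated DNA, where the complex silences genes and transposons. SDC encodes an F-box protein that is kept off in vegetative tissue by methylation, largely outside the CG context, of tandem repeats in its promoter. QQS encodes a small orphan protein that affects starch content, and its methylation and expression vary naturally among plants. BNS, also called BONSAI, encodes a subunit of the anaphase-promoting complex similar to APC13, and methylation can spread into it in ddm1 mutants from a LINE retrotransposon at its 3′ side.

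The DNA under the peaks differed among the 3 genes, and the stretches that held the highest summits are shown because they carry the CG sites that methyl-CG-binding proteins can read. All were read from the TAIR10.1 reference on the plus strand, 5′ to 3′, and capitals mark CG. The SDC sequences are 5 adjoining copies of a 32 bp unit at chr2:7681922-7682081, 240 to 81 bp before the start of the gene, and copy 4 holds the highest summit. The QQS sequences are the 271 bp up to the start of the gene, chr3:12348776-12349046, and a 150 bp stretch around the second peak past its end, chr3:12350206-12350355. The BNS sequence is the 300 bp centred on the highest ACD15 summit, chr1:27516174-27516473, inside the LINE. BNS itself lies on the minus strand.
SDC repeat copy 1: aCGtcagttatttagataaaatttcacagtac
SDC repeat copy 2: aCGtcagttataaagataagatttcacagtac
SDC repeat copy 3: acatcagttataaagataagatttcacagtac
SDC repeat copy 4: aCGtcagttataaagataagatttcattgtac
SDC repeat copy 5: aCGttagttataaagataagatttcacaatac
QQS summit sequence: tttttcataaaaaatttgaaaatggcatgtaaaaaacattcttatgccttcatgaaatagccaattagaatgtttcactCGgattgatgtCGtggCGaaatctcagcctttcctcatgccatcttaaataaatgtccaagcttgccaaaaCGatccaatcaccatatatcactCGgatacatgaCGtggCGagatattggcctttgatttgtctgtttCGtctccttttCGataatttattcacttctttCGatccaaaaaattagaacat
QQS downstream summit sequence: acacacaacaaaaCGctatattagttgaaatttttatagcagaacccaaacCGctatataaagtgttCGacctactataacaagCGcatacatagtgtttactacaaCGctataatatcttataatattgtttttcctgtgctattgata
BNS summit sequence: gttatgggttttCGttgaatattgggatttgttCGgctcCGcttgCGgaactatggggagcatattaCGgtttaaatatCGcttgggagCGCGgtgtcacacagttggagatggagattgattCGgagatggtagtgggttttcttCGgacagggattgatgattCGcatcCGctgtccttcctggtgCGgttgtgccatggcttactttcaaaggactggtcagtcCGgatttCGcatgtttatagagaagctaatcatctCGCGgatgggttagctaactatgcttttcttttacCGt

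Each SDC copy carries at most 1 CG, at its second base, and 4 of the 5 copies carry it. The copies were between 90.6% and 100% identical to their consensus, and copy 3 lacks the CG. The QQS stretch holds 10 CG sites, and 6 of them fall in a pair of related 37 bp stretches that start 197 and 103 bp before the start of the gene, 94 bp apart and 81.1% identical, with 3 CG each. They are shown side by side because their CG sites stand at matching places.
QQS stretch 1: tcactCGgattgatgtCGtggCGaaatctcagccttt
QQS stretch 2: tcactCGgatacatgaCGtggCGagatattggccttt
The BNS stretch holds 18 CG sites, the most of the sequences printed here.

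**Figure D1:**
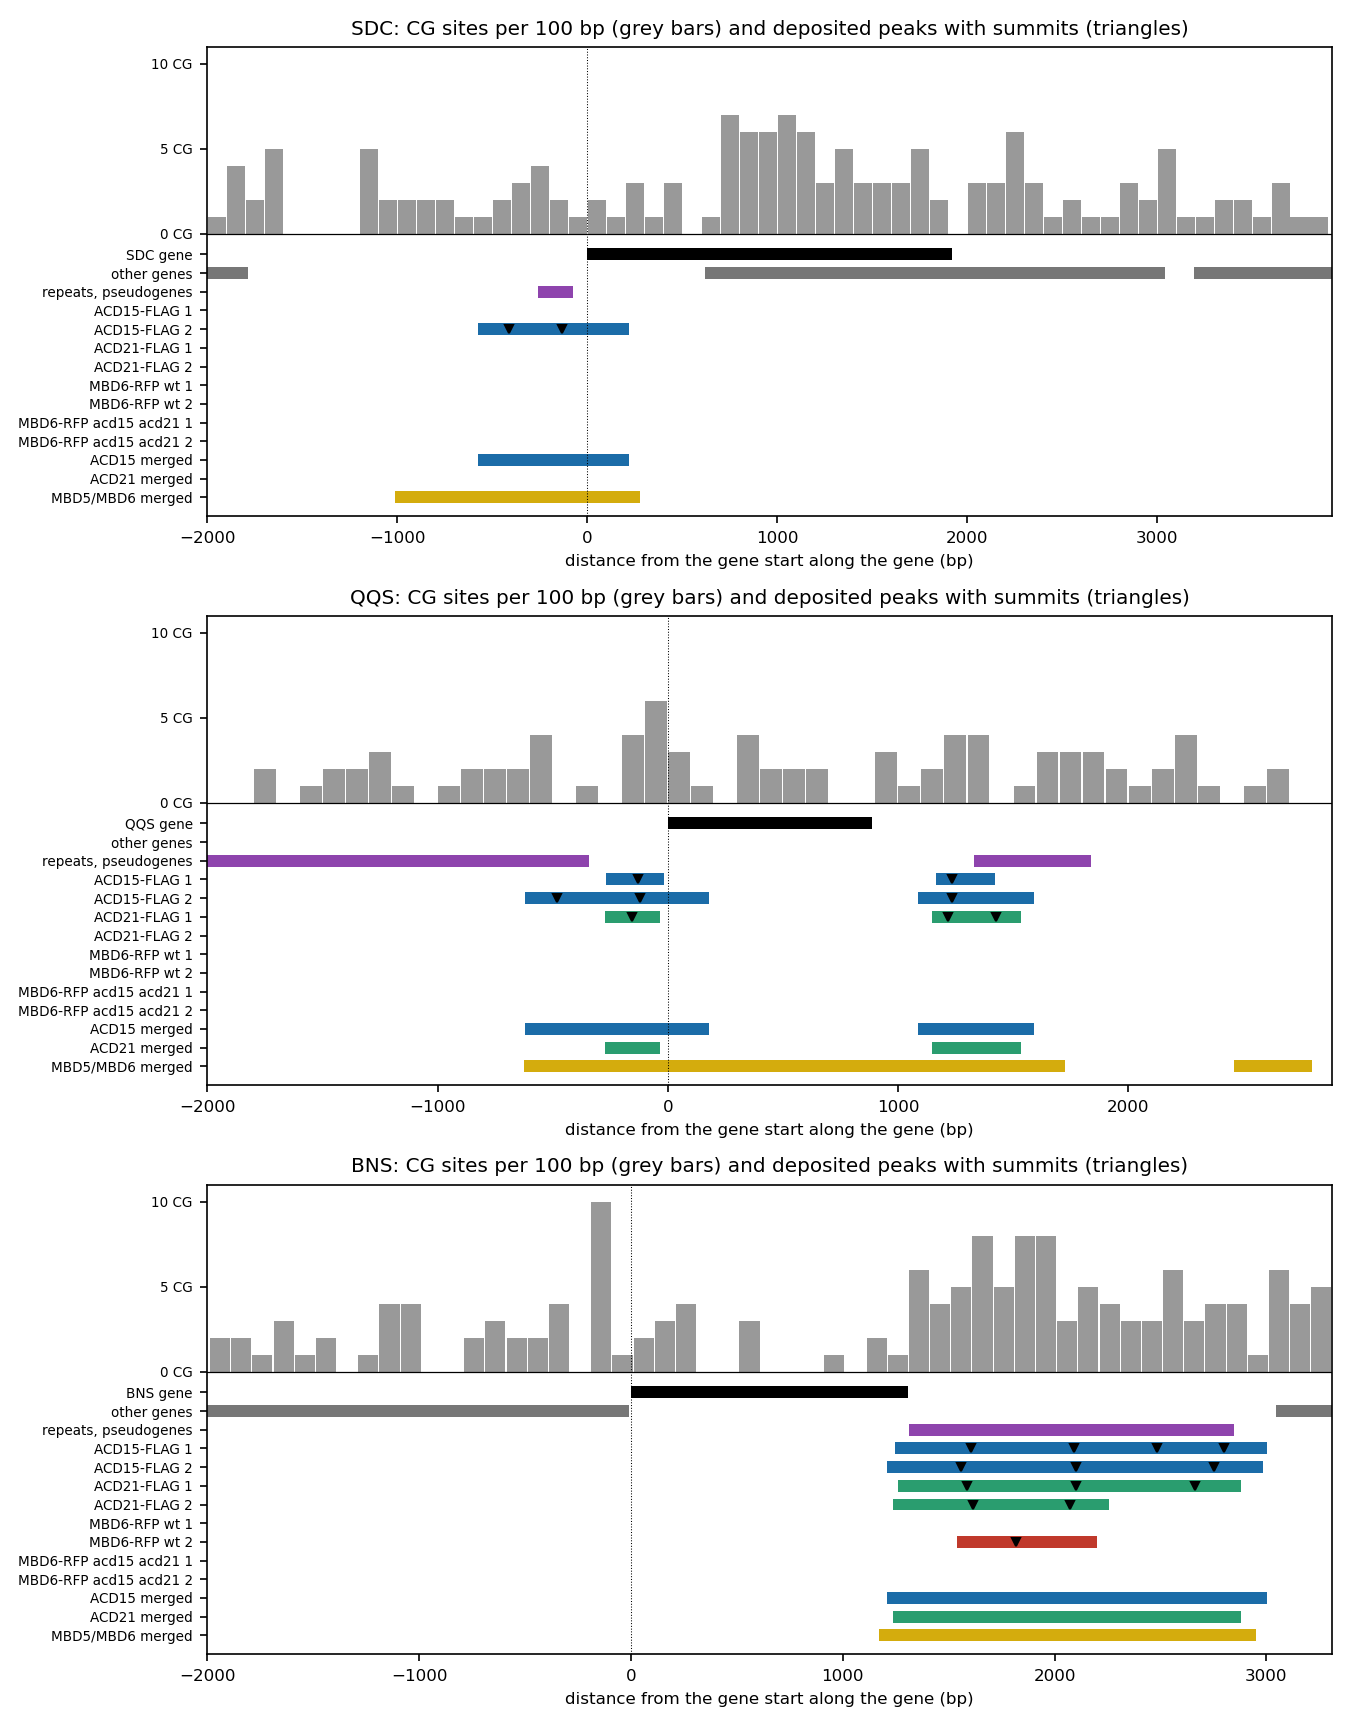
Maps of the SDC, QQS and BNS windows, with distance from the start of the gene along the direction of the gene in bp on the horizontal axis. Grey bars give CG sites per 100 bp, bars below them give the gene, other genes, repeats and pseudogenes and the regions of each deposited list, and triangles mark summits. The SDC and upstream QQS summits stand before the gene start, while the BNS peaks lie over the pseudogene that follows the gene. ACD21-FLAG replicate 2 and MBD6-RFP cover that pseudogene only in part.

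The lists differed in size, which sets how often any window holds a peak. ACD15-FLAG gave 5661 and 10946 regions (replicates 1 and 2), ACD21-FLAG 6774 and 3571, MBD6-RFP in wild type 3492 and 1244, and MBD6-RFP in acd15 acd21 3987 and 404. Peak lists hold no read counts, so depth is unknown, and a window without a peak is one in which no peak was called. Of the 3 genes, 2 had a peak in ACD15-FLAG replicate 1, where 21.8% of all windows did, and 3 had one in replicate 2, against 33.3%. In ACD21-FLAG 2 had a peak in replicate 1, against 23.4%, and 1 in replicate 2, against 14.2%. QQS and BNS had one in both ACD15-FLAG libraries, as 21.3% of windows did, and BNS in both ACD21-FLAG libraries, as 14.1% did.

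Of the 3 genes, BNS alone had an MBD6-RFP peak, in 1 of 4 lists, and the share of all windows with one was small in the replicate 2 lists only. In wild type none had a peak in replicate 1, against 11.2% of all windows, and BNS alone had one in replicate 2, against 2.59%. In acd15 acd21 none had a peak in replicate 1, against 15.7%, or in replicate 2, against 0.911%. The merged lists joined the replicates, and there 3 genes held an ACD15 region (33.8% of all windows did), 2 one of ACD21 (23.5%) and 3 one of the MBD5/MBD6 list (41.5%). That last list was made from MBD5 and MBD6 peaks, and no library of this series is named among its parents. With 3 genes, these counts describe SDC, QQS and BNS and say nothing of a class.

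SDC held its only library peak in ACD15-FLAG replicate 2. The region lay at chr2:7681585-7682382, was 798 bp wide and ran from 577 bp before the start of the gene to 220 bp after it. It had a pair of summits. The first, at position 7681749, lay 413 bp before the start with a fold enrichment of 2.66. The second, at 7682027, lay 135 bp before the start with a fold of 2.85 and a −log10 q value of 19.1. Fold enrichment is the ratio of signal over background that the authors' peak caller computed, and it is the authors' own value for a peak. The fold of 2.85 was above that of 52.9% of the regions in its list, each region taken at its highest fold. The SDC peak was thus one of middle height.

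The second SDC summit fell inside the tandem repeat and the first did not. The repeat, found by comparing the window with itself, spanned chr2:7681903-7682085, which is 183 bp or 5.72 copies of 32 bp, from 259 to 77 bp before the start. ACD15-FLAG replicate 1, both ACD21-FLAG libraries and all 4 MBD6-RFP libraries had no SDC peak. The nearest regions of ACD15-FLAG replicate 1 lay 17942 bp and 4166 bp beyond the window. The merged ACD15 region was that of replicate 2 alone. The MBD5/MBD6 list held 1 region there, chr2:7681148-7682439, 1292 bp wide with both MBD5 and MBD6 as parents, and it contained 100% of the ACD15 peak. The other protein-coding genes, AT2G17680, AT2G17695 and the kinase gene STY8, held no summit of the window. AT2G17695, on the minus strand, overlaps SDC.

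QQS had peaks on both sides of the gene. In the upstream site, ACD15-FLAG replicate 1 had a region of 253 bp at chr3:12348777-12349029, with its summit 129 bp before the start and a fold of 1.87. ACD15-FLAG replicate 2 had a region of 797 bp at chr3:12348429-12349225, with its main summit 121 bp before the start and a fold of 3.34. A lesser summit of that region, with a fold of 1.80, lay 482 bp before the start, inside the pseudogene AT3G30722. ACD21-FLAG replicate 1 had a region of 241 bp at chr3:12348774-12349014, with its summit 156 bp before the start and a fold of 2.11. The 3 main summits fell within 35 bp of each other, and the fold was highest in ACD15-FLAG replicate 2. All 3 stood between the pseudogene and the gene, in the CG-rich stretch printed above.

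The downstream QQS site lay in the same 3 libraries. ACD15-FLAG replicate 1 had a region of 259 bp at chr3:12350213-12350471, with a fold of 1.76 at a summit 347 bp past the end of the gene. ACD15-FLAG replicate 2 had one of 505 bp at chr3:12350134-12350638, with a fold of 2.69 at 348 bp past the end, 1 base from the summit of replicate 1. ACD21-FLAG replicate 1 had one of 386 bp at chr3:12350197-12350582, with summits 331 and 539 bp past the end and folds of 1.70 and 1.74. The last of these summits lay in the pseudogene AT3G30724, which the annotation gives no product name. The downstream folds were each below the upstream fold of the same library.

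Several QQS peaks were low for their lists. The upstream fold exceeded that of 17.0% of regions in ACD15-FLAG replicate 1, 64.1% in replicate 2 and 30.1% in ACD21-FLAG replicate 1. The downstream fold exceeded 10.7%, 48.4% and 6.27%. ACD21-FLAG replicate 2 and the 4 MBD6-RFP libraries had no QQS peak. The MBD5/MBD6 list, in contrast, held 1 region of 2351 bp with both parents that spanned the gene and both sites, chr3:12348421-12350771, and a second of 341 bp, chr3:12351506-12351846, from MBD5 alone. The 6 QQS peak regions of the FLAG libraries lay 100% within the larger one.

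Just beyond the QQS window stood a region shared by more libraries. It began 1127 bp outside the window in ACD15-FLAG replicate 2, at chr3:12353060-12353556, with a fold of 6.01. Its fold was 3.46 in ACD15-FLAG replicate 1, 3.64 and 2.38 in ACD21-FLAG, 13.0 in MBD6-RFP in wild type replicate 1 and 4.88 in acd15 acd21 replicate 1. MBD6-RFP replicate 2 had none there in either genotype. ACD21-FLAG replicate 2 and MBD6-RFP replicate 1 of both genotypes therefore had a peak next to the QQS window but none in it.

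BNS had a peak in all 4 FLAG libraries, and every one lay past the 3′ end of the gene over AT1G73175. This transcribed pseudogene, described as a LINE in the annotation, runs over chr1:27515033-27516568 on the plus strand, and 3 bp separate it from BNS. ACD15-FLAG replicate 1 covered it with a region of 1756 bp at chr1:27514879-27516634, and replicate 2 with 1778 bp at chr1:27514896-27516673. ACD21-FLAG replicate 1 covered it with 1619 bp at chr1:27515002-27516620, and replicate 2 covered the end nearer to BNS with 1023 bp at chr1:27515625-27516647. MBD6-RFP in wild type replicate 2 had a region of 664 bp at chr1:27515680-27516343. The other MBD6-RFP libraries, replicate 1 in wild type and both in acd15 acd21, had none. Beyond the window the nearest ACD15-FLAG replicate 2 regions lay 73736 and 115363 bp away, so the BNS peak stood alone in that list. Other lists had closer regions, at 27062 and 19711 bp in MBD5/MBD6 and at 16936 bp in MBD6-RFP in acd15 acd21 replicate 1. The 4 FLAG regions reached into the last bases of BNS and left the rest of the gene without a peak.

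The 13 BNS summits all fell inside the LINE. In ACD15-FLAG replicate 1 the folds were 2.71, 1.77, 1.63 and 2.27 at 295, 782, 1176 and 1490 bp past the end of BNS. In ACD15-FLAG replicate 2 they were 4.46, 3.03 and 3.34 at 248, 790 and 1444 bp. The summit nearest to BNS was the highest in both libraries, and the farthest one came second.

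In ACD21-FLAG the summit nearest to BNS was again the highest. In replicate 1 the folds were 3.84, 2.21 and 2.05 at 278, 789 and 1355 bp past the end, and in replicate 2 they were 2.91 and 2.05 at 303 and 765 bp. The highest summits of the 4 FLAG libraries fell within 55 bp of each other, and second summits near 782 to 790 bp in 3 libraries and at 765 bp in the fourth. The single MBD6-RFP summit lay 507 bp past the end with a fold of 7.10, between the first and second FLAG summits, and it widened the range of the main summits to 259 bp.

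BNS peaks were wide for their lists, and their highest summits stood above the middle of them. The highest fold exceeded 65.0% and 80% of regions in the ACD15-FLAG libraries and 82.0% and 70.6% in ACD21-FLAG. In MBD6-RFP in wild type replicate 2 it exceeded 84.2%. The lesser summits ranked lower, from 4.12% in ACD15-FLAG replicate 1 to 64.0% in ACD15-FLAG replicate 2. The merged regions measured 1795 bp for ACD15 (chr1:27514879-27516673) and 1646 bp for ACD21 (chr1:27515002-27516647), wider than 98.0% and 99.0% of their lists, and each came from both replicates. The MBD5/MBD6 region measured 1783 bp (chr1:27514930-27516712), with both parents. It held 97.1% and 98.1% of the ACD15-FLAG peaks and 100% of the ACD21-FLAG and MBD6-RFP peaks.

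**Figure D2:**
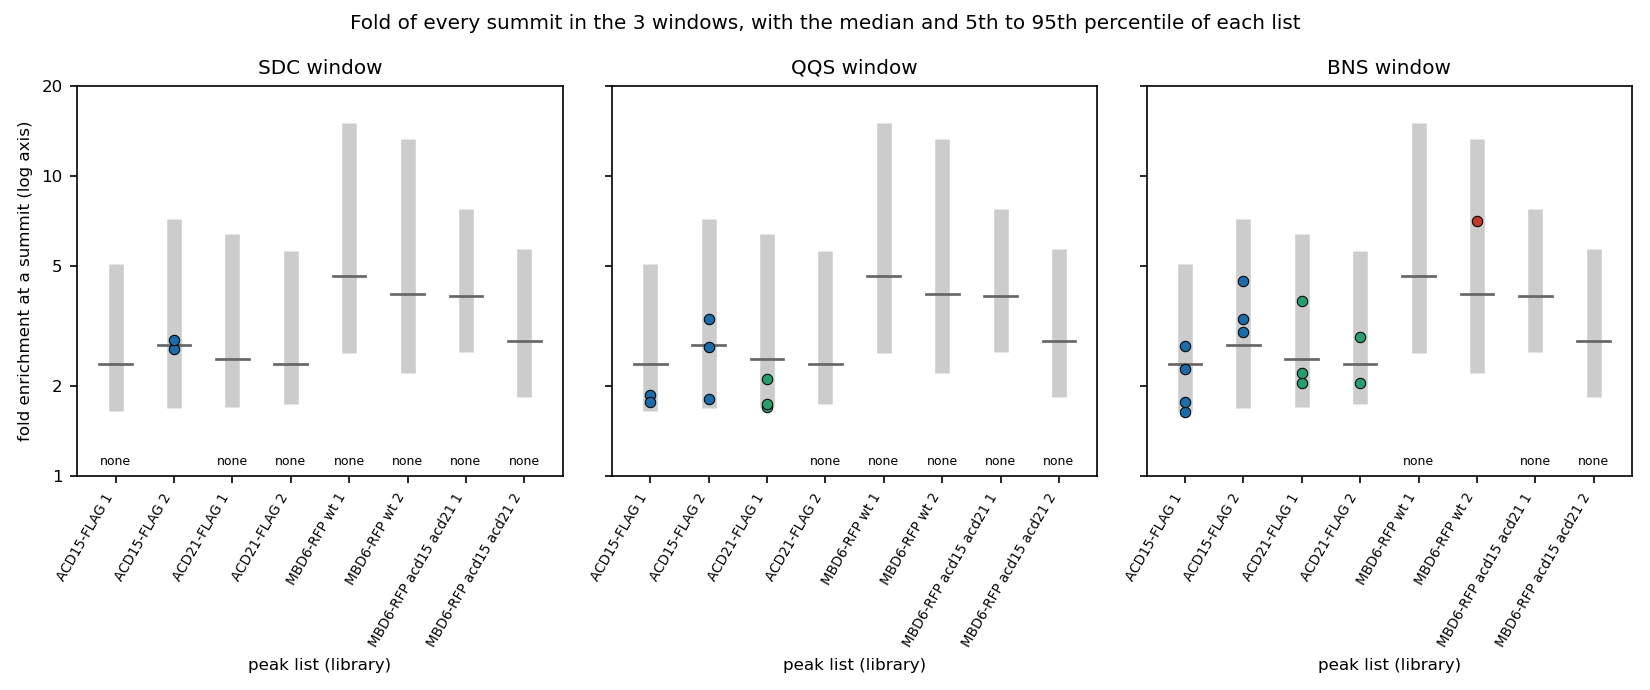
Fold enrichment of each summit (vertical axis, log scale) in the SDC, QQS and BNS windows by library (horizontal axis). Points are summits, horizontal marks the median fold of all regions in a list, each at its highest fold, and grey bars the 5th to 95th percentile. Libraries without a peak are marked none. Folds at QQS in ACD15-FLAG replicate 1 and ACD21-FLAG replicate 1 stand below the list median, and the BNS summit of MBD6-RFP stands at 7.10.

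BNS values are uncertain where reads could be shared with other copies of the element, and how the authors treated reads that map to several places is not given in the sources used. A copy of the whole LINE, 98.3% identical, lay at chr5:14578812-14580348, and another of the 300 bp around the BNS summit, 98.7% identical, at chr1:5958799-5959098. The chromosome 5 copy had folds of 2.29 and 4.07 in ACD15-FLAG, 3.28 and 2.24 in ACD21-FLAG, 5.02 in MBD6-RFP in wild type replicate 2 and 4.38 in acd15 acd21 replicate 2. The chromosome 1 copy had folds of 6.09 and 9.11, 6.97 and 5.18, and 8.19 in MBD6-RFP in wild type replicate 2. Neither had a peak in the MBD6-RFP replicate 1 lists, as at BNS. How far reads from these copies contribute to the BNS values was not tested. For the SDC repeat and the 300 bp around the highest SDC and QQS summits, the nuclear genome held no other copy of at least 90% identity over 80% of the length.

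CG density was highest in the element beside BNS. The LINE held 80 CG sites in 1536 bp, or 5.21 per 100 bp (95% Clopper-Pearson interval 4.15 to 6.44), above 98.5% of genome tiles of the same length and 88.1% of merged ACD15 regions. The SDC repeat held 6 in 183 bp, or 3.28 per 100 bp (1.21 to 7.0), above 73.4% of tiles and 63.9% of ACD15 regions. The pseudogene AT3G30722 beside QQS, whose edge lay 220 bp from the highest summit, held 25 in 1785 bp, or 1.40 per 100 bp (0.908 to 2.06), above 9.47% of tiles and 10.3% of ACD15 regions. The BNS interval lay wholly above that of QQS, while the interval of the short SDC repeat overlapped both. The sites are counted in full in the reference, so the densities are exact. The intervals treat each base as a draw and do not test whether the elements differ.

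At QQS the annotated elements were poorer in CG than the DNA around the main upstream summits. AT3G30724 held 2.36 CG per 100 bp and a 39 bp tandem repeat inside AT3G30722, 3.31 copies long, held 0.775. The 300 bp around the highest ACD15 summit held 3.67, and the upstream ACD21 region 3.73. The main upstream summits thus sat beside the pseudogene, on the CG sites just before the gene. For scale, the median was 2.00 over genome tiles of 300 bp, 2.75 over merged ACD15 regions and 3.31 over merged ACD21 regions.

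The genes also differed in whether peaks marked the CG-dense bases of their own windows. Inside ACD15 regions the BNS window held 4.57 CG per 100 bp and outside 2.13, and the QQS window 2.23 and 1.65. The SDC window held 2.13 inside and 2.62 outside, so there the order was the other way round. Its densest tiles of 100 bp, 2 tiles with 7 CG each, had no peak. They lay inside the gene, where AT2G17695 overlaps it (the first centred 750 bp after the start). The densest BNS tile, with 10 CG and centred 140 bp before the start, had no peak either, and the densest QQS tile, with 6 CG and centred 50 bp before the start, lay in the upstream peak.

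The 300 bp around each highest summit were richest in CG at BNS, then at QQS, and poorest at SDC. At SDC they held 2.33 CG per 100 bp, more than 29.8% of summits in the ACD15-FLAG replicate 2 list, whose median was 3.0. At the upstream QQS site they held 3.67 in both ACD15-FLAG libraries, more than 63.5% and 60.5% of their lists, and 3.33 in ACD21-FLAG replicate 1, the median of that list. At BNS they held 5.67 and 6.0 in ACD15-FLAG and 6.33 and 6.0 in ACD21-FLAG, more than 89.6%, 88.3%, 87.3% and 83.5% of summits. The BNS summit of MBD6-RFP held 7.33, but the median of that list was 7.0, so it was CG-rich beside FLAG summits and ordinary in its own list.

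The SDC repeat was rich in CHG sites. It held 16 CHG sites on both strands (H stands for A, C or T), or 8.74 per 100 bp, more than 85.6% of genome tiles of the same length, against 5.27 per 100 bp over the SDC window. CHH sites were fewer, 14.2 per 100 bp in the repeat and 26.1 over the window. These counts are of sequence and hold no measurement of which cytosines were methylated.

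**Figure D3:**
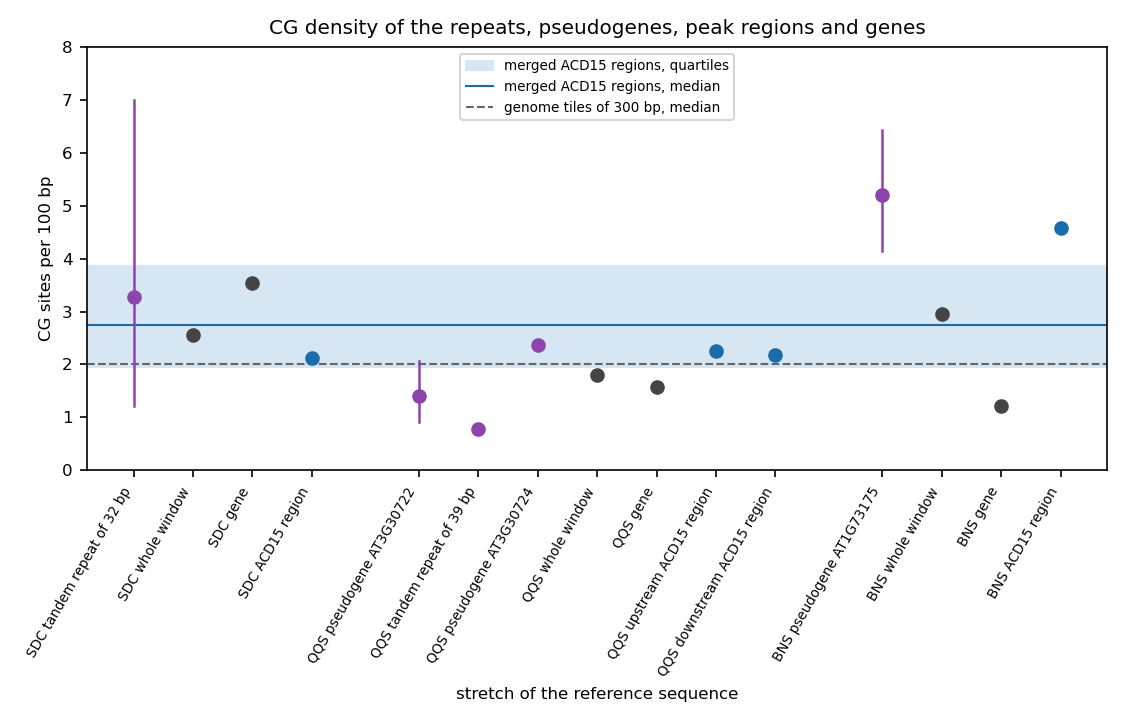
CG sites per 100 bp (vertical axis) in each repeat, pseudogene, gene, window and merged ACD15 region of SDC, QQS and BNS (horizontal axis). Purple points are repeats and pseudogenes, blue points ACD15 regions and dark points genes and windows; vertical lines on the element nearest each highest summit are 95% Clopper-Pearson intervals. The BNS LINE stands highest at 5.21, and the QQS pseudogene AT3G30722 stands below the genome median of 2.00.

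The bases of each window covered by peaks were compared between groups, one value per library. At BNS the values were 1756 and 1778 bp in ACD15-FLAG and 1619 and 1023 bp in ACD21-FLAG. The means were 1767 ± 15.6 bp and 1321 ± 421 bp (SD, n = 2 each), a difference of 446 bp (exact permutation test, two-sided, p = 0.333, adjusted over 6 tests 1.00). With 2 libraries against 2 the smallest p such a test can give is 0.333, so no comparison here could pass 0.05. The difference rested on the far end of the LINE: with windows of 1 kb on each side it was 46.5 bp, and with 500 bp 20.0 bp.

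At QQS the values were 512 and 1302 bp in ACD15-FLAG and 627 and 0 bp in ACD21-FLAG. These groups overlapped, and the means of 907 ± 559 bp and 314 ± 443 bp (SD, n = 2 each) differed by 594 bp (exact permutation test, two-sided, p = 0.667, adjusted 1.00). At SDC the values were 0 and 798 bp against 0 and 0 bp, a difference of 399 bp that is 0 without ACD15-FLAG replicate 2 (exact permutation p = 1.00, adjusted 1.00). ACD15-FLAG replicate 2 was the longest list, and ACD21-FLAG replicate 2 the shortest of the FLAG lists. The part of list length in these differences was not tested.

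For MBD6-RFP in wild type against acd15 acd21, BNS had 0 and 664 bp against 0 and 0 bp, a difference of 332 bp that is 0 without wild type replicate 2 (exact permutation p = 1.00, adjusted 1.00). SDC and QQS had 0 bp in all 4 libraries. No difference between the genotypes was detectable at these genes. The wild type replicate 2 list held 1244 regions and that of acd15 acd21 replicate 2 held 404, and the part of list length was not tested.

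Among windows with a peak, BNS was one of the most widely covered. It had more covered bases than 98.7% and 94.5% of such windows in ACD15-FLAG, 97.3% and 92.3% in ACD21-FLAG and 78.7% in MBD6-RFP in wild type replicate 2. QQS exceeded 61.0% and 85.5% in ACD15-FLAG and 69.1% in ACD21-FLAG replicate 1, and SDC 65.5% in ACD15-FLAG replicate 2. The windows were of ordinary length, 5922 bp for SDC, 4887 bp for QQS and 5311 bp for BNS against a median of 6078 bp.

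Because the authors removed peaks from their lists before deposit, gaps in the peak numbering were read to see whether a removed peak could have stood at a window without one. SDC had no peak in 7 lists, and in 5 of them no number was missing between the neighbouring peaks, so nothing had been removed there. One number was missing over 962 kb in MBD6-RFP in wild type replicate 2 and one over 136 kb in acd15 acd21 replicate 1. QQS had no peak in 5 lists, and only acd15 acd21 replicate 1 lacked numbers, 3 over 19.6 kb. BNS had no peak in 3 lists, of which wild type replicate 1 lacked 1 number over 234 kb and acd15 acd21 replicate 1 lacked 4 over 157 kb. Where those removed peaks lay within the stretches cannot be read from the lists.

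Other genes known for methylated DNA at the promoter or within the gene, or for imprinting, were set beside the 3. Of 18 such genes, the merged ACD15 list had a region at 15 (83.3%, against 33.8% of all protein-coding genes), that of ACD21 at 9 (50%, against 23.5%) and that of MBD5/MBD6 at 17 (94.4%, against 41.5%), in windows of the same kind. By library, 9 and 15 had an ACD15-FLAG peak (50% and 83.3%, against 21.8% and 33.3% of all genes) and 9 and 6 an ACD21-FLAG peak (50% and 33.3%, against 23.4% and 14.2%). An MBD6-RFP peak stood at 5 and 0 in wild type (27.8% and 0%, against 11.2% and 2.59%) and at 7 and 0 in acd15 acd21 (38.9% and 0%, against 15.7% and 0.911%). The list was chosen with results of these data known, and no test of it was made.

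FWA, a homeodomain gene silenced through repeats at its start, had folds of 2.99, 4.89, 2.69 and 2.21 in the FLAG libraries and no MBD6-RFP peak. The highest BNS folds were 2.71, 4.46, 3.84 and 2.91. FWA thus stood slightly above BNS in both ACD15-FLAG libraries and below it in both ACD21-FLAG libraries. RPP7, a disease resistance gene with a transposon in an intron, had 5.77, 8.96, 8.44 and 5.57, and MBD6-RFP folds of 23.9 in wild type and 8.03 in acd15 acd21, both in replicate 1. IBM1 (a histone demethylase gene), EPF2 (a stomatal patterning peptide gene) and CML41 (a calmodulin-like gene) had a library peak only in ACD15-FLAG replicate 2, with folds of 2.45, 2.61 and 2.04, as SDC did with 2.85. BNS was peaked in MBD6-RFP in wild type replicate 2, where none of the 18 was, and lacked the replicate 1 peaks that 5 of them had.

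**Figure D4:**
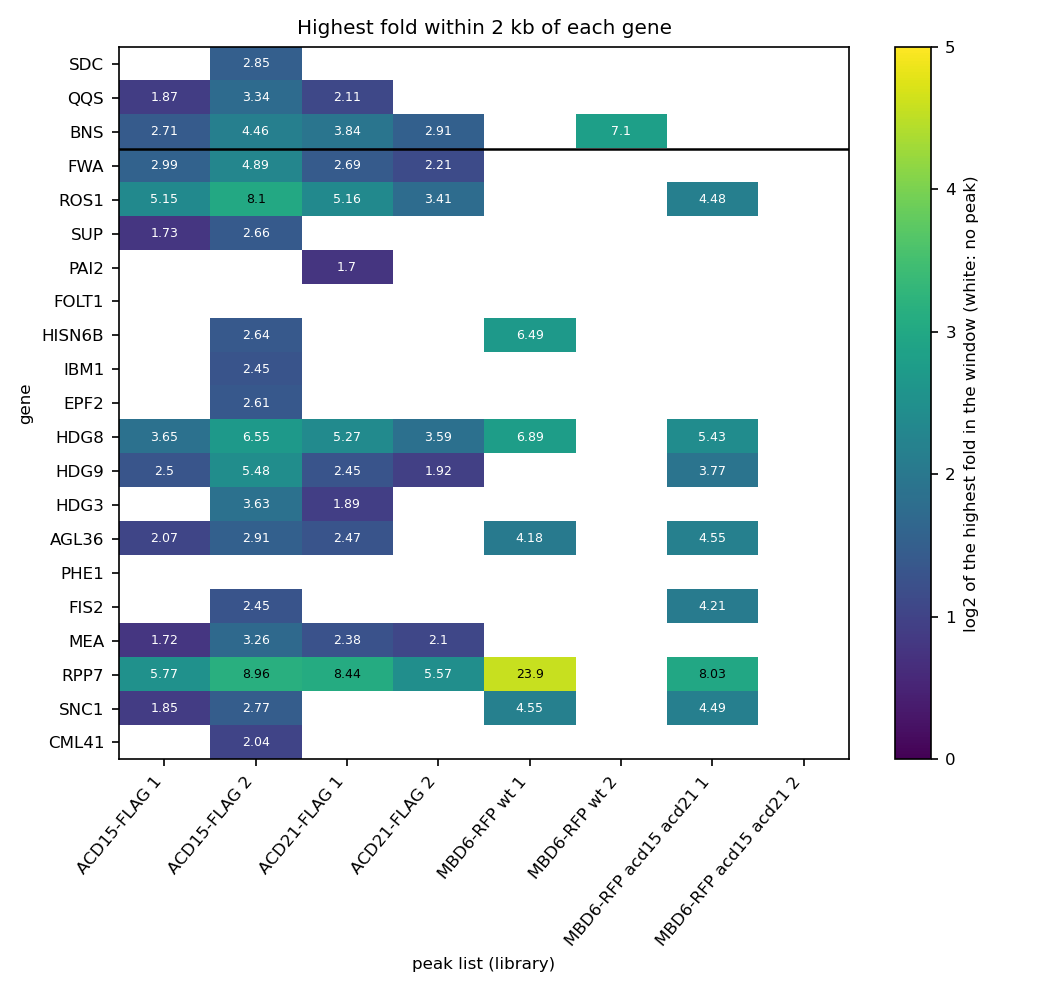
Highest fold within 2 kb of each gene (rows, SDC, QQS and BNS above the line and 18 other genes known for methylation or imprinting below it) in each library (columns). The colour is the log2 of the fold, the number printed is the fold and white means that no peak was called. SDC shares its single column with IBM1, EPF2 and CML41, and BNS is the only row with a value in MBD6-RFP in wild type replicate 2.

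Over all protein-coding genes, likeness was measured as the Euclidean distance between the highest folds over the 8 libraries, with 0 where no peak was called. The pattern of calls of SDC was shared by 1780 other genes (6.49%) and 15 of them lay at a distance of 0.00 as rounded, SCRL19, MPK4 and RECQSIM among them. The genes AT2G17680 and AT2G17695 beside SDC share its peak through overlapping windows. The pattern of QQS was shared by 1036 genes (3.78%), and the nearest were CYP78A5 at 0.09, PSL4 at 0.15 and IPT5 at 0.15. The pattern of BNS, with all 4 FLAG libraries and MBD6-RFP in wild type replicate 2, was shared by 228 genes (0.831%). Its adjoining genes AT1G73170 and AT1G73180 share its peaks through overlapping windows, and the nearest with a symbol were PTR5 at 1.36, BCS1 at 1.90 and RUS6 at 2.01. These distances grow with the number and height of the called folds, so they were not compared between SDC, QQS and BNS.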

How the data were processed

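Peak lists of 8 ChIP-seq libraries (4 groups of 2) and 3 merged lists were analysed. Control lists are not used here. Tools named per the submitters' processing notes are MACS2 2.1.0, Bowtie2, HOMER, Picard, Trim Galore and deepTools 3.0.2, with the build TAIR10; order, settings and treatment of reads that map to several places are not given in the sources used. The authors deposited for each peak a score, a fold enrichment (a ratio) and −log10 of p and q, per single library, and for merged regions the widths and parents. A peak list gives no read depth.

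Entries with the same start and end were joined into 1 region. A peak counted when at least 1 bp fell in the window of 2000 bp on each side of the gene. Sequence, genes and pseudogenes came from TAIR10.1, whose nuclear chromosome lengths fit the files; its annotation has no transposon features, so elements were its pseudogenes and tandem repeats found by self-comparison (at least 3 copies and a score of 50, limits chosen after the sequences were seen). Copies were sought with BLAST+ 2.17.0. Groups were compared by exact permutation of covered bases, two-sided, with Benjamini-Hochberg adjustment over 6 tests (scipy 1.17.1); scripts were tested on simulated data. Replicate spread may be technical. Each p-value only places a difference among all relabellings of the libraries compared, so it does not measure that spread.

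The members and lists were chosen with earlier results of these data known. Genes named were SDC, QQS and BNS, their neighbours, genes from the list of 18 where members are counted, and for each member the 3 genes with a symbol at the smallest distance in fold (ties in order of locus). Alternatives were windows of 1 kb and 500 bp, peaks with −log10 q of at least 5, peaks with at least 50% of their length in the window, leaving out each library, and a replicate block; CG density was also taken at the summit and over the ACD15 region.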

Additional observations from a re-analysis of the deposited data

How the results depend on the processing

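Of 57 recomputed differences in covered bases, 55 kept their sign or stayed at 0, and 2 moved to 0. Part of this count was fixed in advance. SDC and QQS had no MBD6-RFP peak in any library, and a replicate block cannot change a difference of means. No recomputation could bring p under 0.05, so the count does not measure how firm a difference is. Leaving out 1 library at a time gave 0 to 798 bp for ACD15-FLAG minus ACD21-FLAG at SDC, 198 to 988 bp at QQS and 148 to 744 bp at BNS, and 0 to 664 bp for MBD6-RFP in wild type minus acd15 acd21 at BNS, with 0 bp in each case at SDC and QQS. The values of 0 at SDC and BNS came from leaving out the only library with a peak, ACD15-FLAG replicate 2 and MBD6-RFP in wild type replicate 2. Windows of 500 bp cut the MBD6-RFP difference at BNS from 332 to 136 bp. Requiring −log10 q of at least 5 left the downstream QQS site in ACD15-FLAG replicate 2 alone. It changed the QQS difference of ACD15-FLAG minus ACD21-FLAG from 594 to 657 bp. The replicate numbers did not pair the samples by the labels. Differences between replicates 1 and 2 over 27444 genes had r = -0.62 between ACD15-FLAG and ACD21-FLAG and 0.52 between the MBD6-RFP genotypes. With a replicate block the differences were the same, 399, 594 and 446 bp and 0, 0 and 332 bp, and the exact permutation p was 0.50 for ACD15-FLAG against ACD21-FLAG at BNS and 1.00 for the others. Crossed pairing, added after the data were seen, gave 0 tests with p under 0.05, as no design of this size can. CG density stayed within its counting interval in 4 of 6 recomputations. At SDC it fell from 3.28 per 100 bp in the repeat to 2.33 at the summit and 2.13 over the ACD15 region, from above to below the ACD15 region median of 2.75, and at BNS it went from 5.21 to 6.0 and 4.57. At QQS the main 1.40 per 100 bp moved to 3.67 in the 300 bp at the highest ACD15 summit and to 2.26 in the merged ACD15 region, which lie wholly and mostly beside the pseudogene. Counts of the 18 other genes stayed within 1.5 times in 9 of 9 recomputations. They were 13, 7 and 15 (ACD15, ACD21, MBD5/MBD6) with windows of 1 kb and 11, 6 and 12 with 500 bp. Shares of all genes were not computed for these narrower windows, so whether the difference from all genes holds there cannot be read. Depth is unknown, so a peak missing from a short list limits every statement on SDC and QQS in ACD21-FLAG replicate 2 and MBD6-RFP.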
